A study of Rattus norvegicus with 47 samples.

Results

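The nuclear-encoded genes of the oxidative phosphorylation machinery were followed across 47 rat liver arrays of a study of vitamin A status and retinoic acid (RA). They were taken by gene name, as the genes whose symbol begins with Nduf, Uqcr, Cox4, Cox5, Cox6, Cox7, Cox8 or Atp5, plus Sdha to Sdhd, among the probe sets annotated with a single gene. This gave 86 genes, measured by 96 probe sets, of 14217 genes and 31099 probe sets in all. Where a gene had several probe sets, which held for 9 genes, the one with the highest mean over the 13 groups stood for it, and the choice did not use any difference between groups. The name rule took 36 genes of complex I, 6 complex I assembly factors (the Ndufaf genes), 4 of complex II, 7 of complex III, 17 of complex IV and 16 of complex V. Ndufa4, counted here with complex I by its name, is now assigned to complex IV, and Cox6c-ps1 is a pseudogene. A further 7 probe sets whose names met the rule carried several gene symbols and were left out.

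All animals were female Sprague-Dawley rats studied at 8 weeks of age, and each array held the liver RNA of 1 rat. In the diet experiment, pups of dams fed a purified diet without vitamin A received from weaning the same diet with 0 mg retinol per kg (deficient, n = 5), 0.4 mg (marginal, n = 7), 4 mg (adequate, n = 6) or 100 mg (supplemented, n = 2). In the RA time course, the rats were vitamin A-deficient and the dose was about 100 µg of the all-trans acid, with livers taken 3 h (n = 3), 6 h (n = 3), 10 h (n = 4) or 16 h (n = 3) afterwards, against vehicle-only rats at 0 h (n = 3). In the intravenous experiment, rats on a stock diet were primed with vehicle oil, deprived of food, lightly anaesthetised with isoflurane and injected in an iliac vein with about 25 µg of RA bound to albumin, and were studied 30, 60 or 90 min later (n = 3 each) against vehicle-only rats at 0 min (n = 2). The sample titles call these controls untreated while the treatment field gives vehicle only. Neither RA experiment had vehicle rats at a later time, so a change with RA cannot be told apart from one with elapsed time or handling. Values are log2 signals that the authors centred on a median of 0 on each array. Levels of different genes are not compared, since each probe set has its own response.

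Oxidative phosphorylation passes electrons from NADH (complex I) and succinate (complex II, which is also an enzyme of the citric acid cycle) through complex III to oxygen at complex IV, and ATP synthase (complex V) uses the proton gradient that complexes I, III and IV build. Most subunits are encoded in the nucleus and a small core is encoded by mitochondrial DNA. In liver the pathway powers gluconeogenesis and urea synthesis. Retinoic acid acts through nuclear receptors, RAR and RXR, that bind pairs of AGGTCA-like half-sites, whereas many genes of the respiratory chain are known to be driven by NRF1, by the ETS factor GABP and by YY1.

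The promoters of 78 of the 86 genes were in the RefSeq table (build GRCr8), each as the 250 bases before and the 50 bases from the transcription start. They are shown for Atp5po, the gene whose call recurred most often below, and for 1 core gene of each complex. Atp5po lies on chr11:44657434-44657733 (minus strand), Ndufs1 on chr9:72073556-72073855 (minus), Sdhb on chr5:158547684-158547983 (plus), Uqcrc1 on chr8:118467973-118468272 (plus), Cox4i1 on chr19:65630133-65630432 (plus) and Atp5f1b on chr7:1099808-1100107 (plus). Capitals mark NRF1 (GCATGCGC), ETS (CCGGAAG) or YY1 (AAGATGG) letters, searched on both strands.
Atp5po: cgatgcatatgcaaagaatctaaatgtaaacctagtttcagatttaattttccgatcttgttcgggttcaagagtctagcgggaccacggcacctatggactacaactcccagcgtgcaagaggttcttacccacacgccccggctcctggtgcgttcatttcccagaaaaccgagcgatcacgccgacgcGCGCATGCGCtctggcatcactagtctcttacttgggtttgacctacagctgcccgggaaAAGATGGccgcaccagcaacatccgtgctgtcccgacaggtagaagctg
Ndufs1: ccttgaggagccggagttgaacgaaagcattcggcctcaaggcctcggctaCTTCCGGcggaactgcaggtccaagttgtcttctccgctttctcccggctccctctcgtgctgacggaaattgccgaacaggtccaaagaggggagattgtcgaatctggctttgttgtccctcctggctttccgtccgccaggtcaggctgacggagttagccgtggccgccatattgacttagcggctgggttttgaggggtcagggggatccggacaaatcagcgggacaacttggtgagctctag
Sdhb: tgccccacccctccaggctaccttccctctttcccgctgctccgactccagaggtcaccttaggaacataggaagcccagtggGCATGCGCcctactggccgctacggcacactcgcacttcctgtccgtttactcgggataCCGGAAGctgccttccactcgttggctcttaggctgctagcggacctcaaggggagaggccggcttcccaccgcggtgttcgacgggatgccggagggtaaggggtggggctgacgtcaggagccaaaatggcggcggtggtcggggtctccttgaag
Uqcrc1: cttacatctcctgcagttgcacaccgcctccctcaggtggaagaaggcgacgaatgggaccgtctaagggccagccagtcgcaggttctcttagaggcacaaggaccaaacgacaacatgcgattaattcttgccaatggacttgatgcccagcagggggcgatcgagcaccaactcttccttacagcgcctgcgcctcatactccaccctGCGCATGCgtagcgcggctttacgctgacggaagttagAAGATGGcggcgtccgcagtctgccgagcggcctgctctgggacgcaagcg
Cox4i1: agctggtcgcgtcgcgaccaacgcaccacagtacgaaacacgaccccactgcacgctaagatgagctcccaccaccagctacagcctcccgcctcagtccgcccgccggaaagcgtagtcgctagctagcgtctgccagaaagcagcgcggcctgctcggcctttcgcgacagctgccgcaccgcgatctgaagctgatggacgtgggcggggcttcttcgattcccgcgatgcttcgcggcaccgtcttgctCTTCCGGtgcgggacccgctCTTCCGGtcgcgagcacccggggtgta
Atp5f1b: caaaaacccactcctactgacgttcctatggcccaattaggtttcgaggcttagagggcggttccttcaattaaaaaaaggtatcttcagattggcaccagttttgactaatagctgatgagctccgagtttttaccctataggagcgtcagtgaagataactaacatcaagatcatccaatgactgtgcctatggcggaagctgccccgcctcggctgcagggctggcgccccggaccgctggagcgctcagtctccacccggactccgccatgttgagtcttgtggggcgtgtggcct

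Positions are counted from the transcription start that each window was built on. For Sdhb that start lies downstream of the annotated gene start, 158547775, which falls inside the window shown. In Atp5po the NRF1 letters occurred on both strands in overlapping copies at -59 and -57, and the YY1 letters at 2. Sdhb held NRF1 letters at -167 and ETS letters at -108, and Uqcrc1 held NRF1 letters at -39 and YY1 letters at -1. Cox4i1 held ETS letters at 4 and 24, and Ndufs1 held them at -199. Atp5f1b, the catalytic beta subunit of ATP synthase, held none of the 3. Over all members with a promoter, the NRF1 letters occurred in 9 of 78, against 2.66% of 27457 promoters in the table, the ETS letters in 22 (28.2%, against 9.22%) and the YY1 letters in 20 (25.6%, against 7.3%). In all, 38 members held at least 1 of these 3 motifs and 40 held none. The Sp1 letters GGGCGG occurred in 34 members (43.6%, against 34.9%). A direct repeat of AGGTCA with a gap of 5 bases, the textbook retinoic acid response element, was in 0 members and in 3 promoters of the table (0.0109%). These are matches of letters in a 300-base window and nothing was measured at them.

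Before the comparisons, the arrays themselves were compared. The median signal of the 86 genes ranged between 4.34 and 6.07 over the 47 arrays as deposited, and between 4.85 and 5.74 after quantile normalization within each experiment, which gives all arrays of an experiment the same distribution. Deficient replicates 1 and 2 had the lowest medians of the 47 arrays (4.34 and 4.59) and the narrowest spread over all probe sets (SD 1.95 and 2.07 on the log2 scale). RA 16 h replicates 1 and 2 had the lowest medians of the time course (4.84 and 4.73, SD 2.39 and 2.38), while RA 16 h replicate 3 stood at 5.604 (SD 2.58). The 3' minus 5' signal of the Gapdh control probe sets, a measure of 3' bias, was 0.105 to 1.37 over the arrays. It was largest in adequate replicate 5 (1.37), vehicle 0 h replicate 1 (0.947) and deficient replicate 5 (0.922). For actin these 3 arrays had 3.16, 2.46 and 1.32, in a range of 1.23 to 3.16. The main results below are given on both scales, and a value with no scale named is on the deposited one. The database identifiers of the diet arrays formed 2 runs, 12 arrays in run 1, which held both supplemented rats, and 8 in run 2. Of the 86 genes, 55 were lower and 1 was higher in run 2 than in run 1 as deposited (14.1% of all probe sets tested differed in either direction), with a median of -0.57, and 32 were lower and 2 higher after quantile normalization (13.5%), with a median of -0.20. Ndufa11, an accessory membrane subunit of complex I, had the largest decrease, of -1.66 as deposited and -1.33 after quantile normalization. The run was therefore a term of the diet fit, so a fitted change can differ from the difference of group means. Alb, a hepatocyte marker, averaged between 8.34 and 10.1 over the 13 groups, with a summed level of the 13 measured markers between 11.4 and 13.4 on the log2 scale. In whole liver, fewer cells of a type and less RNA per cell cannot be told apart.

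**Figure D1:**
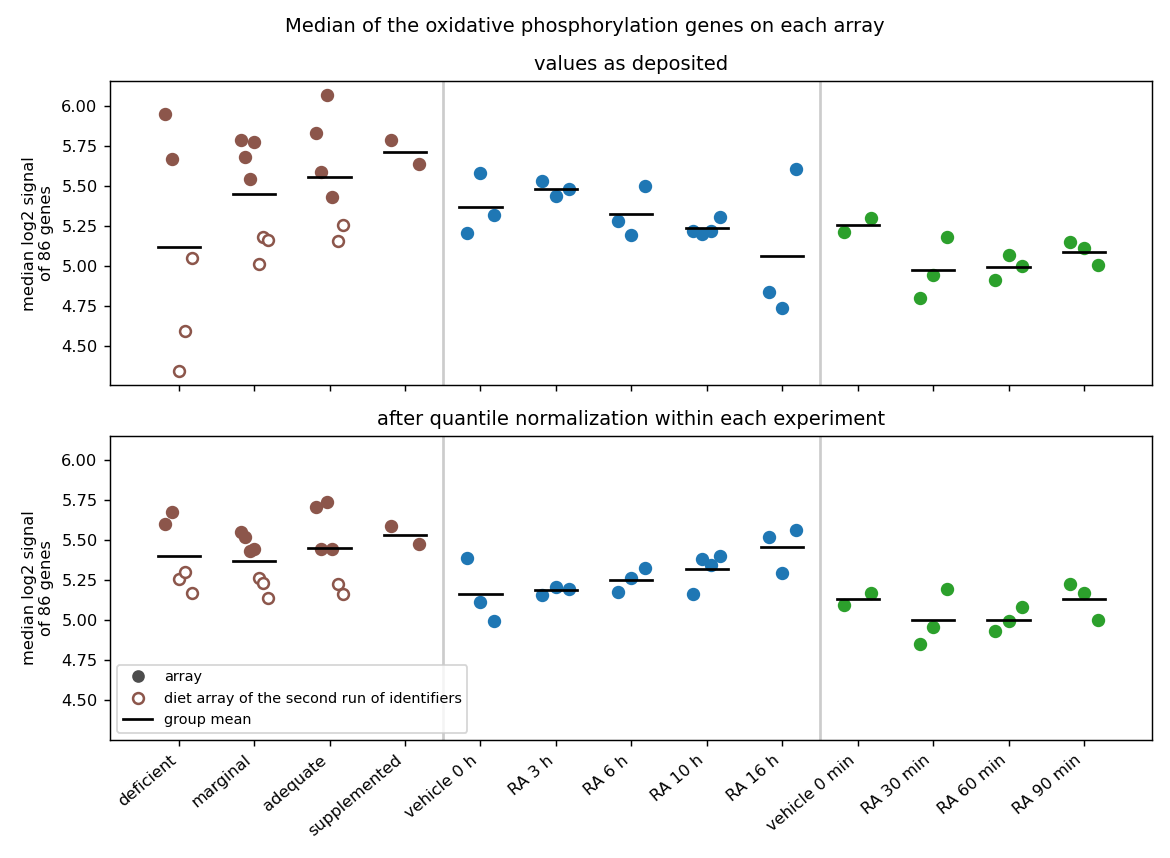
Median log2 signal of the 86 genes on each array, by group, as deposited and after quantile normalization; each point is 1 rat, open points are diet arrays of run 2 and the horizontal bars are group means. As deposited, deficient replicates 1 and 2 (4.34 and 4.59) and RA 16 h replicates 1 and 2 (4.84 and 4.73) lie below the other arrays of their experiments, and the spread narrows after quantile normalization.

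The first question was whether the machinery follows dietary vitamin A. As deposited, 0 of the 86 genes were called in the deficient against the adequate livers at an adjusted p under 0.05 (limma, Benjamini-Hochberg over 27595 probe sets), where 1.08% of all probe sets were called. The median fitted change of the members was -0.21 on the log2 scale (-0.33 without deficient replicate 4 and -0.0894 without deficient replicate 1), beside -0.11 for all probe sets tested, and 14 of 86 lay above 0, against 41.5% of all probe sets. On quantile-normalized values the median was 0.04, beside -0.02 for all probe sets, with 52 of 86 above 0 (48.3% of all probe sets) and 0 called, against a background of 1.22%. At an unadjusted p under 0.05, 7 members were lower in deficient livers as deposited (8.14%), against 9.84% of all probe sets. The direction of the median differed between the scales. The deposited median was 0.10 among run 1 arrays and -0.51 among run 2 arrays, against 0.07 and 0.05 after quantile normalization. Deficient replicates 1 and 2, the arrays of narrowest spread, were both in run 2. The remaining deficient liver of run 2, replicate 3, had a member median of 5.05, against 5.16 and 5.25 in the run 2 adequate livers. The part of replicates 1 and 2 in the run 2 median was not tested. The difference of the deficient effect between the runs was called for 0 members on either scale, where 0.0435% and 0.0254% of all probe sets were called. Its median over the members was -0.62 as deposited, with 78 of 86 below 0, beside -0.33 for all probe sets. After quantile normalization it was -0.01, with 47 of 86 below 0. The deposited median was 0.08 when adequate replicate 5 and deficient replicates 1, 2 and 5 were left out, with 2 deficient livers remaining.

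By complex, the deposited median change in deficient livers was -0.22 for complex I, -0.30 for complex II, -0.21 for complex III, -0.07 for complex IV and -0.24 for complex V. After quantile normalization these medians were 0.06, -0.01, 0.08, 0.08 and 0.03. The 6 assembly factors had medians of -0.43 as deposited and -0.24 after quantile normalization, with 5 of 6 below 0 on both scales. Ndufaf1, an assembly factor of the complex I membrane arm, had the lowest p of the members. Its signal in the 5 deficient livers was -2.06 at the lowest, 0.12 at the median and 1.23 at the highest, against 0.99, 1.25 and 1.72 in the 6 adequate livers. The groups overlapped, since deficient replicate 4 lay within the adequate range, and the fitted change of -1.16 ± 0.37 (SE) had an adjusted p of 0.138, and 0.139 after quantile normalization (limma). Ndufaf3, another assembly factor, had 2.18, 2.83 and 3.60 as the lowest, median and highest signal in deficient livers, against 3.36, 3.42 and 3.90 in adequate livers. Here deficient replicate 4 alone reached the adequate range, and the fitted change of -0.57 ± 0.19 had an adjusted p of 0.156, against -0.34 ± 0.13 and 0.25 after quantile normalization (limma). Ndufa3, an accessory subunit of complex I, came next, with a fitted change of -0.55 ± 0.20 (adjusted p = 0.21) and -0.24 ± 0.13 after quantile normalization (adjusted p = 0.481, limma). Without deficient replicate 4, 4 members (4.65%) were called as deposited, Ndufaf1, Ndufaf3 and Ndufa3 among them, where 5.44% of all probe sets were called. A second Ndufaf7 probe set had -1.79 ± 0.55 (adjusted p = 0.126) as deposited and -2.18 ± 0.60 after quantile normalization (adjusted p = 0.071, limma).

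On the quantile-normalized scale the lowest p in deficient livers belonged to Cox5b, a structural subunit of complex IV, with a fitted change of 0.44 ± 0.13 (adjusted p = 0.0863, limma). Its quantile-normalized signal averaged 6.57 in deficient and 6.28 in adequate livers. Atp5if1, the inhibitor that blocks ATP hydrolysis by complex V, had 0.56 ± 0.17 (adjusted p = 0.108, limma). Neither was called. Of the core genes, Cox4i1, the ubiquitous isoform of a structural subunit of complex IV, had a fitted change of -0.24 ± 0.22 as deposited and -0.01 ± 0.09 after quantile normalization, and Sdhb, the iron-sulfur subunit of complex II, had -0.28 ± 0.19 and 0.02 ± 0.09.

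Against adequate livers, the deposited median change of the members was -0.04 in marginal livers (0.04 for all probe sets) and -0.09 in supplemented livers (0.03), or -0.05 in both after quantile normalization, and 0 members were called in either comparison, where 0% and 0.0109% of all probe sets were called. At an unadjusted p under 0.05, 0 members passed in marginal livers (3.32% of all probe sets), where Ndufaf8 had the lowest p, at 0.36 ± 0.19, followed by Ndufaf7 and Atp5f1d. In supplemented livers 1 member passed lower (2.24% of all probe sets), Ndufaf7, an arginine methyltransferase needed for complex I assembly, at -0.90 ± 0.43, followed by Cox6b2 (2.16 ± 1.25) and Atp5me (-0.48 ± 0.29). For Ndufaf7 only supplemented replicate 2 was low, at -0.557. Replicate 1 had 1.854, within the adequate range of 0.955 to 1.993. In supplemented against deficient livers, the median was 0.16 for the members and 0.16 for all probe sets, with 0 members called (0.42% of all probe sets) and 1 passing the unadjusted threshold higher (5.83%), Ndufaf1, at 1.20 ± 0.52; Ndufs1 (0.45 ± 0.26) and Ndufa3 (0.48 ± 0.28) came next. On quantile-normalized values the supplemented against deficient median was -0.07. The supplemented group held 2 rats, both from run 1.

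**Figure D2:**
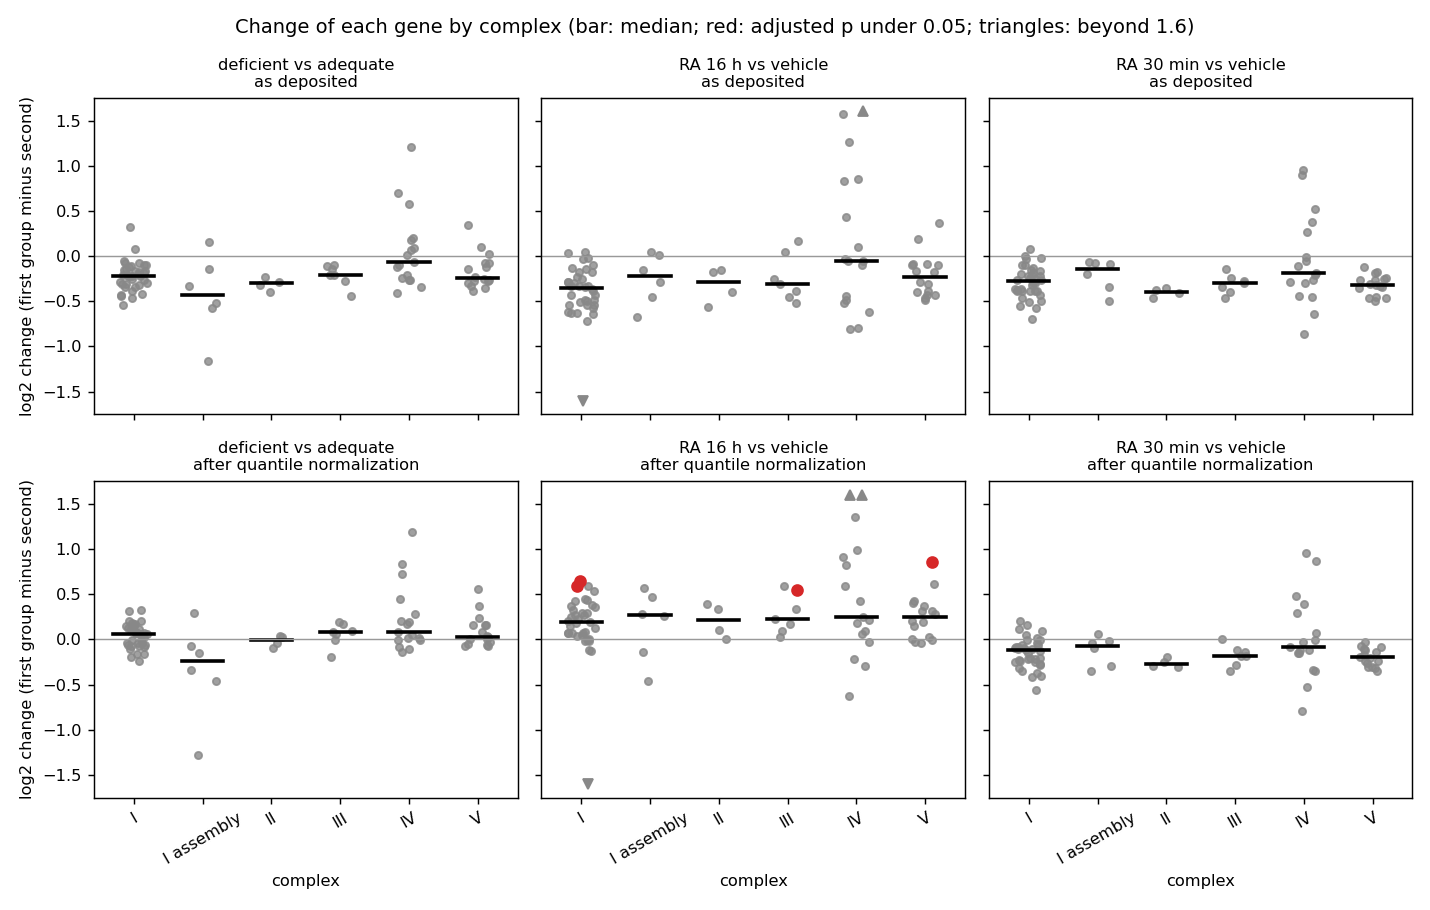
Fitted log2 change of each gene by complex, for 3 comparisons, as deposited (top) and after quantile normalization (bottom); points are genes, bars are medians, red points passed the adjusted threshold and triangles lie off the scale. For RA 16 h against vehicle the complex I median is -0.36 as deposited and 0.20 after quantile normalization, and for RA 30 min against vehicle it is -0.28 and -0.12.

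The time course asked how RA given to deficient rats altered the liver over 16 h. As deposited, 0 members were called at 3, 6, 10 or 16 h against vehicle, where 0.0762%, 0.201%, 0.488% and 6.11% of all probe sets were called. The median change of the members was 0.09 at 3 h, -0.03 at 6 h, -0.06 at 10 h and -0.31 at 16 h, beside 0.03, -0.09, -0.19 and -0.39 for all probe sets tested. At 16 h, 18 members (20.9%) were lower at an unadjusted p under 0.05, against 19.3% of all probe sets, so the share was close to the background. On quantile-normalized values the medians were -0.01, 0.07, 0.14 and 0.22 at 3, 6, 10 and 16 h, beside -0.06 for all probe sets at 16 h, and 3 members were called higher at 10 h and 4 at 16 h, against backgrounds of 0.582% and 0.384% called higher. Over all RA times together 1 member was called higher (0.336% of all probe sets), Atp5po, by 0.50 ± 0.10 (adjusted p = 0.00809, and 0.241 without vehicle 0 h replicate 3, limma). The comparisons share the 3 vehicle livers. Without RA 16 h replicates 1 and 2, a single 16 h liver remains, whose spread is assumed to be that of the other groups; its median over the members was 0.18 above vehicle as deposited and 0.32 after quantile normalization.

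Atp5po encodes the oligomycin sensitivity-conferring protein, the peripheral stalk subunit that ties the catalytic head of ATP synthase to the stator. After quantile normalization its signal was 6.46, 6.61 and 6.64 in the 3 livers at 16 h and 6.30, 6.48, 6.43 and 6.56 in the 4 livers at 10 h, against 5.89, 5.72 and 5.55 in the vehicle livers. All 7 late livers lay above all 3 vehicle livers. Atp5po rose by 0.72 ± 0.11 on the log2 scale at 10 h (adjusted p = 0.000764, limma) and by 0.85 ± 0.12 at 16 h (adjusted p = 0.000391, limma), a 1.65-fold and 1.80-fold change. It remained called at both times when any 1 of the 16 arrays was left out, with adjusted p values up to 0.0178 and 0.00449. As deposited, the same signal was 5.85, 6.15 and 6.76 at 16 h and 6.38, 6.35, 6.35 and 6.51 at 10 h, against 5.70, 6.13 and 5.84 with vehicle. The 10 h livers again lay above every vehicle liver, but RA 16 h replicate 1 lay within the vehicle range, and the changes were 0.51 ± 0.20 (adjusted p = 0.361) and 0.36 ± 0.21 (adjusted p = 0.326, limma). At 3 and 6 h the quantile-normalized changes were 0.12 ± 0.12 and 0.29 ± 0.12, neither called. Another, dim Atp5po probe set had -0.97 ± 1.10 at 16 h after quantile normalization, an error too wide to give a direction.

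**Figure D3:**
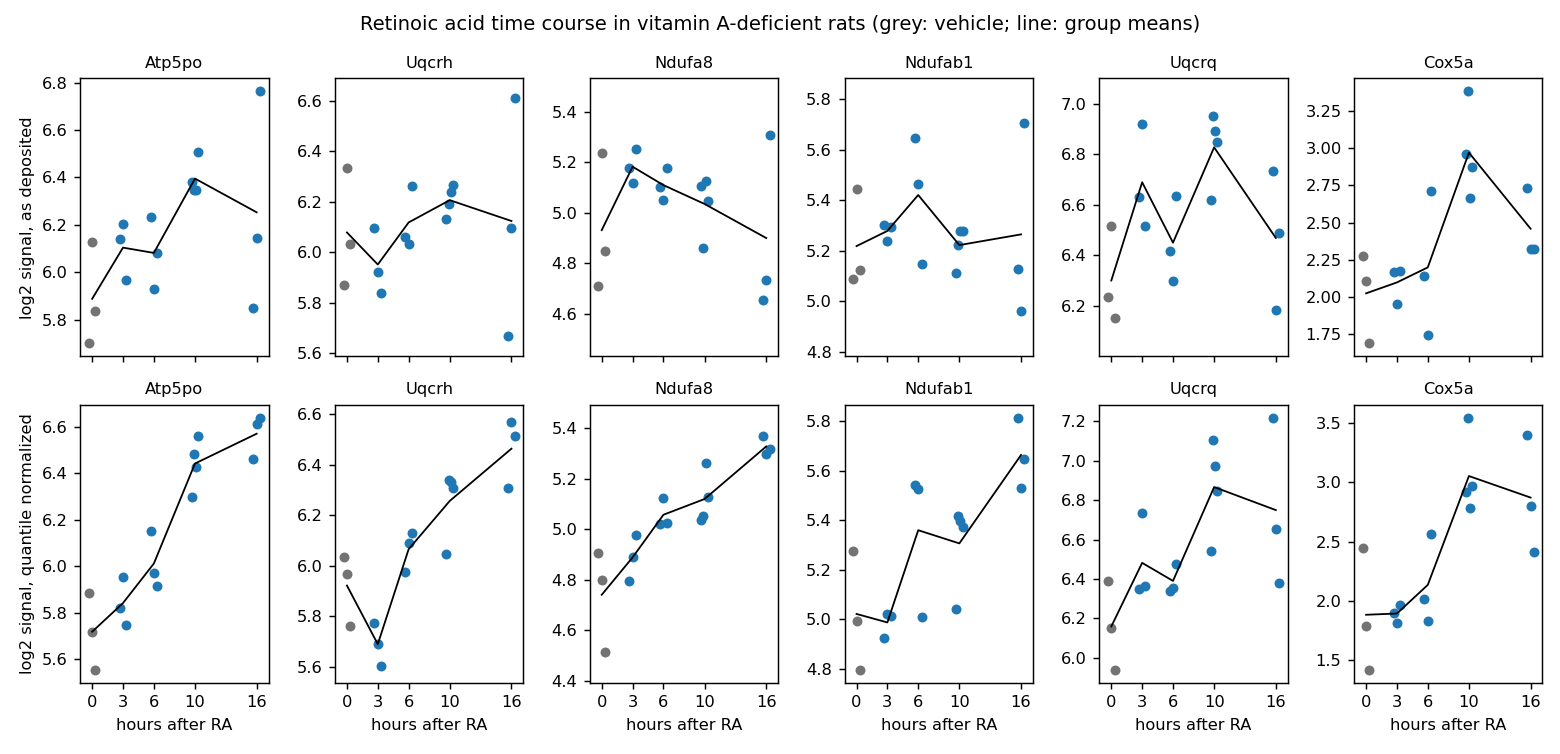
Log2 signal of the 6 genes called at 10 or 16 h, by hours after RA, as deposited (top) and after quantile normalization (bottom); points are rats, vehicle livers in grey at 0 h, and lines join group means. After quantile normalization the 10 h and 16 h livers lie above the vehicle livers for Atp5po, whereas as deposited RA 16 h replicate 1 lies among them.

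The calls against vehicle, those of Atp5po included, were made on the quantile-normalized scale only. Uqcrq, a small subunit of complex III that binds ubiquinone, had 6.54, 7.11, 6.97 and 6.85 at 10 h, against 6.39, 6.15 and 5.94 with vehicle. All 4 livers were higher than the vehicle livers, and Uqcrq rose by 0.71 ± 0.16 (adjusted p = 0.0249, limma). Cox5a, a structural subunit of complex IV, had 2.92, 3.55, 2.78 and 2.97 at 10 h, against 2.45, 1.79 and 1.42 with vehicle, and rose by 1.17 ± 0.29 (adjusted p = 0.0411, limma). The brighter Cox5a probe set, left out because it also names another locus, had 0.48 ± 0.12 at 10 h, with an adjusted p of 0.0655 (limma). As deposited, Uqcrq had 0.53 ± 0.19 and Cox5a 0.94 ± 0.29 at 10 h, with adjusted p values of 0.282 and 0.169 (limma). Uqcrq and Cox5a stayed called in 11 and 7 of 16 fits that left out 1 array, and had adjusted p values of 0.233 and 0.37 without vehicle 0 h replicate 3 (limma).

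At 16 h the genes called besides Atp5po belonged to complexes I and III. Uqcrh, the hinge subunit that links cytochromes c and c1 in complex III, had 6.31, 6.57 and 6.51 at 16 h, against 6.03, 5.97 and 5.76 with vehicle, and rose by 0.54 ± 0.12 (adjusted p = 0.0251, limma). Ndufa8, an accessory subunit of complex I, had 5.37, 5.30 and 5.32, against 4.91, 4.80 and 4.51 with vehicle, and rose by 0.59 ± 0.13 (adjusted p = 0.0268, limma). Ndufab1, the mitochondrial acyl carrier protein that is also a subunit of complex I, had 5.81, 5.53 and 5.65, against 5.28, 4.99 and 4.79, and rose by 0.64 ± 0.16 (adjusted p = 0.0422, limma). In each of these genes every 16 h liver lay above every vehicle liver. As deposited their 16 h changes were 0.05, -0.03 and 0.05 in the same order, with SEs of 0.21, and none was called on that scale. The calls held in 13, 13 and 7 of 16 fits that left out 1 array, and all 3 were lost without vehicle 0 h replicate 3 (adjusted p = 0.165, 0.189 and 0.228, limma).

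At 16 h after quantile normalization, 28 members (32.6%) were higher at an unadjusted p under 0.05, against 5.16% of all probe sets, the 4 called members included, and in 23 members (26.7%) every RA liver lay above every vehicle liver, against 7.04% of all probe sets. The median residual SD on this scale was 0.174 for the members and 1.147 for all probe sets tested, so these shares are not at equal precision. The medians by complex at 16 h were 0.20 for complex I, 0.22 for II, 0.23 for III, 0.25 for IV and 0.24 for V. As deposited they were -0.36, -0.28, -0.31, -0.05 and -0.24. Cox4i1 had 0.25 ± 0.10 and Sdhb 0.33 ± 0.11 after quantile normalization, while Atp5f1b had -0.04 ± 0.10 and Ndufv1, which binds the NADH of complex I, had -0.01 ± 0.16. Uqcrc2, a core protein of complex III, had 0.23 ± 0.12 (adjusted p = 0.395), and a second probe set of it was called at 0.91 ± 0.22 (adjusted p = 0.0373, limma).

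The lowest p as deposited at 16 h was that of Cox8a, a small subunit of complex IV. Its signal was 5.16, 5.16 and 6.55 at 16 h, against 6.18, 6.69 and 6.42 with vehicle. RA 16 h replicates 1 and 2 were low and replicate 3 lay within the vehicle range, and the change of -0.80 ± 0.26 was not called (adjusted p = 0.0627, limma). Cox7b (-0.62 ± 0.24) and Ndufb6 (-0.64 ± 0.25) came next. After quantile normalization Cox8a had -0.29 ± 0.16, Cox7b -0.22 ± 0.13 and Ndufb6 -0.02 ± 0.15. At 3 h the lowest p was that of Ndufv3, at 0.46 ± 0.20, followed by Uqcrq and Atp5me, and at 10 h Cox6a1, the liver isoform of a complex IV subunit, had -0.67 ± 0.23 (adjusted p = 0.262, limma). Over all RA times Cox6a2 (1.73 ± 0.88) and Ndufs8 (-0.43 ± 0.22) were among the lowest. Without RA 16 h replicate 3, 35 members (40.7%) were called lower as deposited, where 15.7% of all probe sets were called, and without vehicle 0 h replicate 1, 6 (6.98%) were, where 11.2% were.

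The change between the earliest and the latest time was also tested, a comparison added after the times were seen to lie apart. As deposited, 7 members were lower at 16 h than at 3 h, against 8.41% of all probe sets called lower, a share of 8.14% of the members. They were Cox8a, Ndufb4, Ndufb6, Ndufc2, Ndufv3, Sdha (the flavoprotein subunit of complex II) and Uqcr10, with changes of -0.71 to -0.81 on the log2 scale. Sdha had 4.92, 4.87 and 5.87 at 16 h, against 6.32, 5.95 and 5.81 at 3 h, and the adjusted p was 0.037 (limma). On quantile-normalized values 4 members were higher at 16 h than at 3 h, Atp5f1e, Atp5po, Ndufab1 and Uqcrh, by 0.63 to 0.77, against 0.336% of all probe sets called higher. The 7 members had changes of -0.04 to -0.21 after quantile normalization, and 0 of them were called there. Without RA 16 h replicates 1 and 2, 1 liver is left at 16 h. The median change of all members from 3 h was then 0.101 as deposited and 0.3003 after quantile normalization.

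Genes outside the name rule were read from fixed lists. Cox17, a copper chaperone of complex IV assembly, was called at 10 h on both scales. Its deposited signal was 4.51, 4.45, 4.66 and 4.54 at 10 h, against 2.97, 3.84 and 3.72 with vehicle, all 4 above, and it rose by 1.03 ± 0.23 (adjusted p = 0.0319, limma). After quantile normalization it rose at 6 h by 0.80, at 10 h by 1.29 (adjusted p = 3.47e-05) and at 16 h by 1.01 (adjusted p = 0.00284, limma). It was the only gene of 31 assembly factors tested outside the rule that was called at these times. Cyc1, cytochrome c1 of complex III, rose by 0.57 at 10 h and 0.72 at 16 h after quantile normalization (adjusted p = 0.032 and 0.0103, limma), and was the only one of 14 other respiratory chain and shuttle genes called there. As deposited at 16 h, Etfdh and Nnt were called lower among those 14. Of 15 citric acid cycle enzymes, Dld and Suclg2 were called lower as deposited at 16 h and Suclg1 higher after quantile normalization. Of all probe sets, 0.488% were called at 10 h and 6.11% at 16 h as deposited, in either direction. After quantile normalization these shares were 1% and 1.12%.

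Among 17 regulators of mitochondrial biogenesis tested, Gabpa, the DNA-binding subunit of GABP, was called lower at 16 h on both scales, by -2.50 as deposited (adjusted p = 0.00963) and -2.13 after quantile normalization (adjusted p = 0.0448, limma). Its signal at 16 h averaged -0.14 ± 1.84 (SD, n = 3), against 2.36 ± 0.86 with vehicle (n = 3), so the 16 h livers were widely spread. Polg, the mitochondrial DNA polymerase, was lower at 16 h as deposited by -1.12 ± 0.24 (adjusted p = 0.00784), against -0.52 ± 0.23 after quantile normalization, which was not called (adjusted p = 0.299, limma). In this 16 h comparison, 6.11% of all probe sets were called as deposited and 1.12% after quantile normalization, in either direction. Of 9 Kupffer cell markers, 3 (Clec4f, C1qb and Cd5l) were lower as deposited and 0 were called after quantile normalization. The summed level of the Kupffer cell markers was between 6.15 and 6.70 at 16 h, against 7.00 to 7.31 with vehicle. Of 13 hepatocyte markers, Alb was higher and Apob lower as deposited, and Apob, Fgb and Fgg were lower after quantile normalization. The part of these markers in the results for the 86 genes was not tested.

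The intravenous experiment covered the first 90 min after RA. As deposited, 0 of 82 members tested were called at 30, 60 or 90 min (0.0879%, 0.387% and 0.505% of all probe sets), and Cox4i2, Cox6b2, Cox7b2 and Cox8b had too low a signal to be tested. The median of the members lay below vehicle at every time. It was -0.28 at 30 min, -0.25 at 60 min and -0.17 at 90 min, beside -0.10, -0.10 and -0.11 for all probe sets. Without vehicle 0 min replicate 1 or 2, which leaves 1 vehicle liver, the median was -0.363 or -0.243 at 30 min, -0.307 or -0.176 at 60 min and -0.249 or -0.0865 at 90 min. At an unadjusted p under 0.05, 44 members (53.7%) were lower at 30 min, 35 (42.7%) at 60 min and 15 (18.3%) at 90 min, against 6.21%, 6.9% and 7.53% of all probe sets. On quantile-normalized values the medians were -0.14, -0.13 and -0.04, and 23 members (28%), 11 (13.4%) and 3 were lower, against 2.78%, 3.87% and 3.98%. The 3 times share the same 2 vehicle rats, and the members share the arrays, so they are not independent. The members varied less than all probe sets (median residual SD 0.127 against 0.348 as deposited, 0.131 against 0.349 after quantile normalization), so these shares are not at equal precision. The SD over all probe sets averaged 2.47 on the vehicle arrays and 2.41, 2.40 and 2.42 at 30, 60 and 90 min. Its part in the shares was not tested.

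Of the 82 members tested, 4 had a change above 0 at 30 min as deposited and 11 after quantile normalization, against 38.6% and 46.6% of all probe sets. All 4 genes of complex II were below vehicle on both scales. Sdhc, a membrane anchor that binds ubiquinone, had 5.03, 5.23 and 5.47 at 30 min, against 5.67 and 5.75 with vehicle, and Sdhd, the other anchor, had 5.59, 5.75 and 5.90, against 6.17 and 6.15. In both genes every RA liver was below both vehicle livers. Their changes were -0.47 ± 0.13 and -0.41 ± 0.12, each with an adjusted p of 0.317 (limma), and -0.31 ± 0.13 and -0.29 ± 0.12 after quantile normalization. Of the 16 complex V genes, 16 were below 0 at 30 min on both scales, with medians of -0.32 and -0.20. The lowest p at 30 min was that of Ndufb6, an accessory subunit of the complex I membrane arm, with 4.27, 4.38 and 4.51, against 4.97 and 4.95 with vehicle (change -0.57 ± 0.12, adjusted p = 0.168, limma), followed by Cox8a (-0.45 ± 0.11) and Ndufb2 (-0.43 ± 0.11). At 60 min it was that of Atp5mpl, a small ATP synthase-associated protein, with 4.46, 4.39 and 4.27, against 4.86 and 5.01 (change -0.56 ± 0.14, adjusted p = 0.117, limma), followed by Ndufb1 (-0.61 ± 0.15) and Ndufb6 (-0.44 ± 0.12). At 90 min it was that of Ndufaf3, with 2.91, 2.90 and 3.11, against 3.56 and 3.46 (change -0.54 ± 0.13, adjusted p = 0.12, limma), followed by Ndufa5 (-0.61 ± 0.18) and Atp5mpl (-0.45 ± 0.14). On quantile-normalized values Ndufb6 had -0.41 ± 0.10 at 30 min, Atp5mpl -0.43 ± 0.14 at 60 min and Ndufaf3 -0.40 ± 0.12 at 90 min, none called. The core genes Cox4i1 and Atp5f1b had -0.19 ± 0.12 and -0.12 ± 0.14 at 30 min as deposited. In 39 of 82 members (47.6%) every 30 min liver lay below both vehicle livers after quantile normalization, against 12.3% of all probe sets.

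**Figure D4:**
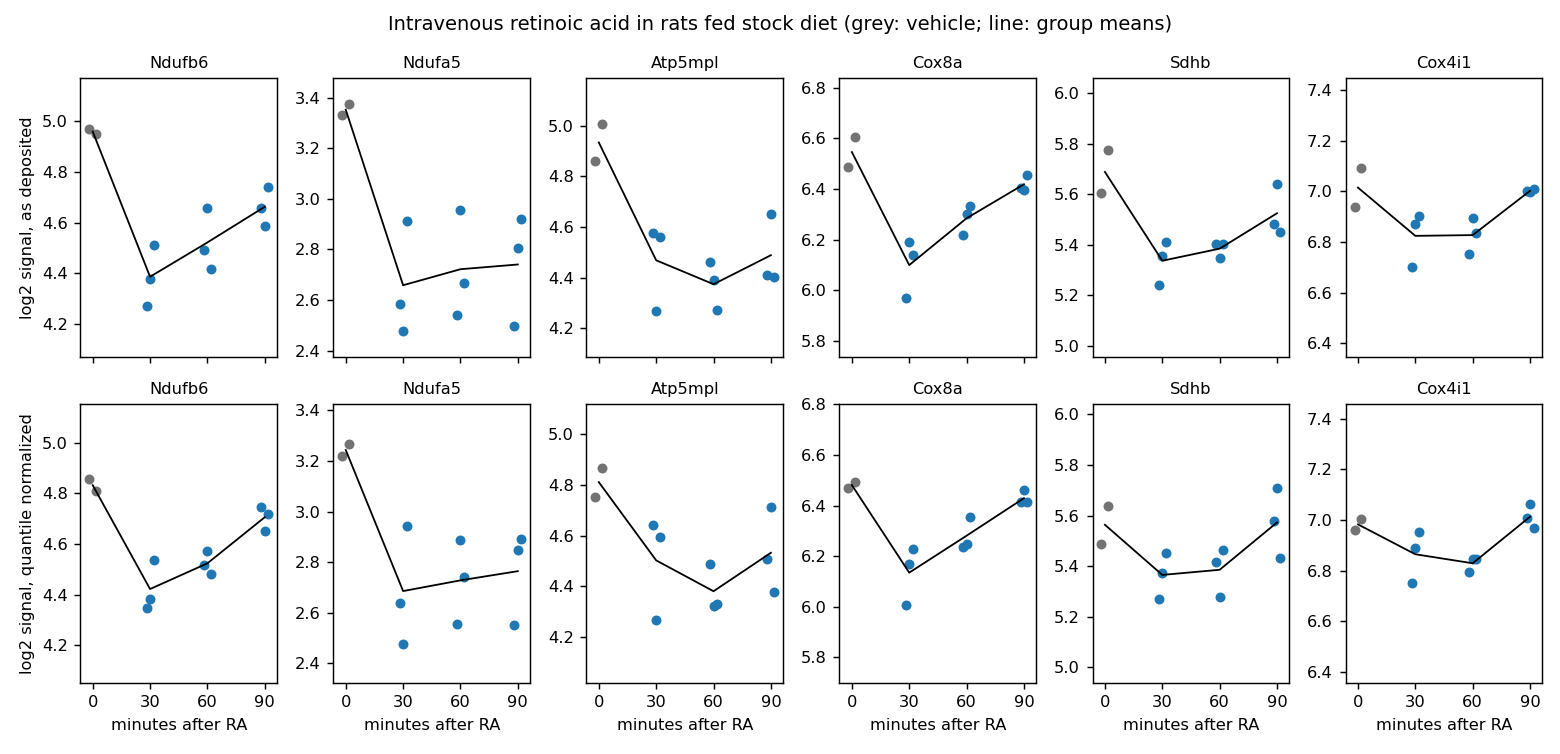
Log2 signal of Ndufb6, Ndufa5, Atp5mpl, Cox8a, Sdhb and Cox4i1 by minutes after intravenous RA, as deposited (top) and after quantile normalization (bottom); points are rats, vehicle livers in grey at 0 min, and lines join group means. For Ndufb6 the 30 min livers lie at 4.27 to 4.51 as deposited, below the vehicle livers at 4.95 and 4.97.

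The genes did not vary equally between livers of a group. The residual SD of the diet fit had a median of 0.315 over the members as deposited, against 0.82 over all probe sets tested, and of 0.195 against 0.832 after quantile normalization. In the time course the medians were 0.279 and 0.174, against 1.142 and 1.147 over all probe sets tested. In the intravenous experiment they were 0.127 and 0.131, against 0.348 and 0.349. The largest residual SDs were those of genes known as isoforms of other tissues: Cox6b2 (testis), Cox6a2 (heart and muscle), Cox4i2 (lung), Cox8b (heart and muscle) and Cox7b2, between 1.35 and 1.67 as deposited in the diet experiment. Their signals were near or below the array median of 0, for instance Cox6a2 at -0.66 ± 2.56 (SD, n = 5) in deficient and -1.30 ± 1.58 (n = 6) in adequate livers. Cox4i2, Cox6b2 and Cox7b2 each had 1 array at the lowest value of its array in at least 1 group. Their partners were steadier in the diet experiment as deposited. The residual SD there was 0.286 for Cox4i1, 0.224 for Cox6a1, 0.309 for Cox6b1, 0.342 for Cox7b and 0.221 for Cox8a. For Cox4i1 it was 0.128 in the time course as deposited, and 0.098 in the diet experiment after quantile normalization. The summed level of 15 muscle markers was between 6.04 and 7.11 in deficient and between 6.34 and 7.15 in adequate livers. At 6 h after RA, Cox6a2 had -0.08, 0.83 and 0.14, against -3.37, -2.32 and -2.49 with vehicle, and was not called (3.02 ± 1.12, adjusted p = 0.693, limma). Ndufa4l2, a paralogue of Ndufa4 that hypoxia induces, had -3.39, -3.16 and -0.70 at 6 h, against 1.00, -0.46 and 0.73, and was not called either (-2.84 ± 0.96, adjusted p = 0.554, limma). At 6 h, 0 of 14 muscle markers tested were called on either scale.

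**Figure D5:**
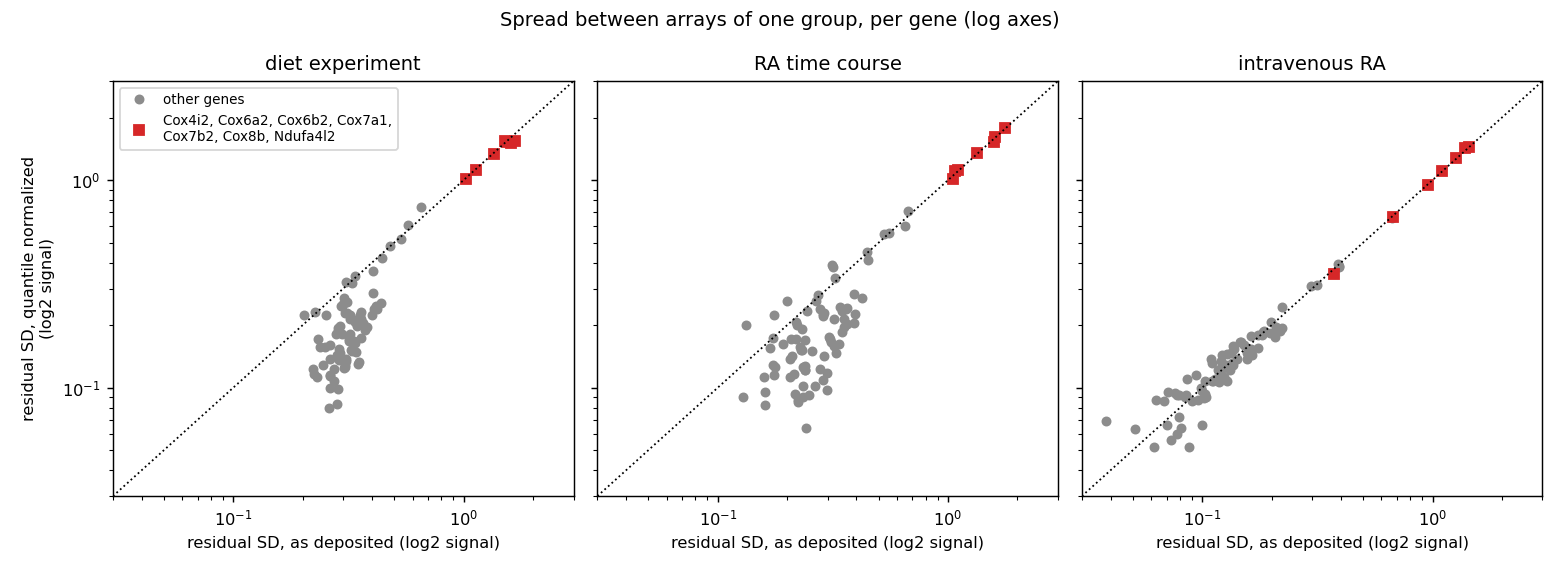
Residual SD of each gene within groups after quantile normalization (vertical, log axis) against that of the deposited values (horizontal, log axis), in each experiment; red squares are Cox4i2, Cox6a2, Cox6b2, Cox7a1, Cox7b2, Cox8b and Ndufa4l2, and the dotted line marks equal SDs. In the diet and time course experiments most other genes lie below the line, while the red squares lie close to it.

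Within groups, the correlation of a gene with the median of the other members, after removing group and run means, had a median of 0.821 over 20 diet arrays, 0.852 over 16 time course arrays and 0.521 over 11 intravenous arrays as deposited, against 0.109, 0.167 and 0.004 for all other probe sets. On quantile-normalized values the medians were 0.436, 0.489 and 0.566, against -0.014, -0.004 and -0.009. These are descriptions across genes that share arrays and their scale. The members also varied less than all probe sets (median residual SD 0.279 against 1.142 in the time course as deposited). The correlations are therefore not at equal precision, and the part of this in their difference was not tested.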

How the data were processed

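Liver RNA of single rats was hybridised to single-colour Affymetrix arrays, with GCOS named in the submitters' processing notes, where no version is given. The deposited log2 values were centred by the authors on a median of 0 per array, and the spread between arrays was not equalised; other upstream steps are not given in the sources used here. A probe set was tested where it exceeded the 40th percentile of its own array in at least 2 arrays (27595 of the diet, 28869 of the time course and 22763 of the intravenous experiment). Group means were fitted per experiment with limma 3.58.1 in R 4.3.3 (lmFit, eBayes with trend), with the run of database identifiers as a covariate of the diet fit, and p-values were adjusted by Benjamini-Hochberg over all probe sets tested, with 0.05 as the threshold. The same fits were made after quantile normalization within each experiment. Medians over members use all 86 genes. The fit was tested on simulated data. The number of arrays limits the precision. The genes named are the called members of each contrast, or the 3 with the lowest p where none was called, besides core subunits, tissue isoforms and the extremes of residual SD. The members and lists were chosen with earlier results of these data known. The 13 subunits encoded by mitochondrial DNA were not analysed here. Alternatives were no filter, no intensity trend, a fold threshold of 1.5, array weights, the run handling, a replicate block, leaving out arrays, and the mean over probe sets. Correlations between same-numbered rats were -0.094 to 0.15 in the diet experiment, -0.038 to 0.054 in the time course and -0.031 to 0.024 in the intravenous one. In the diet experiment 5 of 22 same-numbered pairs exceeded 0.1 (median 0.027), against 7 of 121 other pairs (median -0.013). Replicate numbers were not treated as pairs in the main fits. The 436 probe sets annotated with several genes were named for none.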

Additional observations from a re-analysis of the deposited data

Results flagged for a closer look

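In 10 groups, a named gene had 1 array far from the rest of its group, which chance gives in about 1 in 20 groups, and 240 groups over 59 named genes were examined. In marginal livers, Atp5mpl was 5.47 in replicate 4 (others 4.42 to 4.87). In adequate livers, Atp5f1c was 7.38 in replicate 3 (others 6.87 to 7.06), Ndufaf3 was 3.90 in replicate 3 (others 3.36 to 3.54), Cox6a2 was -4.32 in replicate 5 (others -1.47 to 0.01) and Cox8b was -4.07 in replicate 4 (others -3.00 to -2.43). In deficient livers, Atp5me was 6.11 in replicate 4 (others 3.94 to 4.42). Among the 10 h livers, Cox4i1 was 7.16 in replicate 2 (others 7.34 to 7.36), Cox6c was 7.41 in replicate 4 (others 7.19 to 7.22), Cox8b was -3.67 in replicate 2 (others -0.70 to -0.12) and Ndufb2 was 5.12 in replicate 2 (others 5.33 to 5.35).

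Members called between 16 h and 3 h after RA were 8.14% of the members as deposited, a share close to the 8.41% of all probe sets called lower, with differences of -0.81 for Cox8a, -0.71 for Ndufb4, -0.81 for Ndufb6, -0.73 for Ndufc2, -0.76 for Ndufv3, -0.81 for Sdha and -0.79 for Uqcr10, which were -0.04 to -0.21 after quantile normalization. On that scale 4 members (4.65%, against 0.336% of all probe sets called higher) differed, by 0.63 for Atp5f1e, 0.73 for Atp5po, 0.68 for Ndufab1 and 0.77 for Uqcrh.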

How the results depend on the processing

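The counts and medians moved with array scale, array weights and single arrays. After quantile normalization 3 members were called at 10 h (3.49%, against 1% of all probe sets), 4 at 16 h (4.65%, against 1.12%) and 1 over all RA times of the course (1.16%, against 0.471%). The median change became 0.224 at 16 h, -0.141 at 30 min, -0.0412 at 90 min and -0.114 over all intravenous times, and Ndufa8 at 16 h stood at 0.588. At 16 h against 3 h, 4 were called (4.65%, against 1.23%), with a median of 0.185. With array weights, 4 were called at 10 h (4.65%, against 4.49% of all probe sets) and 9 at 16 h (10.5%, against 11.4%). The replicate block alone was fitted on deposited values and added no call of any member. Without it no member was called there against vehicle or between diets, so no call could be lost. Quantile normalization with the replicate block gave 1, 2 and 1 called at 10 h, 16 h and over all course times, rather than 3, 4 and 1. The counts with the block were 1.16%, 2.33% and 1.16% of the members, against 0.672%, 0.911% and 0.436% of all probe sets. The medians with that block were 0.224 at 16 h, -0.331 for supplemented against deficient livers, -0.138 at 30 min, -0.0295 at 90 min and -0.115 over all intravenous times. Without RA 16 h replicates 1 and 2, which leaves 1 liver at 16 h, only the medians are given. The 16 h median was then 0.180, and that of 16 h against 3 h was 0.101. With quantile normalization as well, these medians were 0.318 and 0.3003. Leaving out 1 array at a time, on both scales for the course, gave 0 to 6 called at 10 h, 0 to 35 at 16 h, 0 to 2 over all course times and 0 to 4 in deficient against adequate livers. The highest counts were 6.98%, 40.7%, 2.33% and 4.65% of the members, against 0.595%, 15.7%, 0.322% and 5.44% of all probe sets. The medians ranged from -0.134 to 0.193 at 10 h, from -0.511 to 0.304 at 16 h and from -0.160 to 0.183 over all course times. As deposited they ranged from -0.33 to -0.0894 in deficient, from -0.0912 to 0.0327 in marginal and from -0.16 to -0.0069 in supplemented against adequate livers. They ranged from 0.0459 to 0.272 in supplemented against deficient livers, from -0.0068 to 0.217 at 3 h and from -0.125 to 0.081 at 6 h. Over both scales Ndufa8 at 16 h ranged from -0.236 to 0.669, and after quantile normalization alone from 0.476 to 0.669. Quantile normalization and array removal together were chosen after seeing the data, as was 16 h against 3 h. The cause of these changes was not tested.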
